A study of Mus musculus with 16 samples.

Results

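Genes of B cells and plasma cells were followed in mouse liver: 9 genes were chosen by symbol, Ighm, Igha, Igkc, Jchain, Cd79a, Cd79b, Mzb1, Pou2af1 and Ms4a1, out of 53372 in the table, and all 9 were found. The libraries came from liver of FVB/NCrl mice in 4 groups: CTRL had 0 mg/L of diphenyl phosphate (DPhP, a diester of phosphoric acid used in industry), C1 had 0.1 mg/L, C2 had 1 mg/L and C3 had 10 mg/L. The strain was common to all groups, and the labels do not state the route, duration, age or sex. The series' design text has each group's livers combined into 1 pool whose 4 libraries are analytical replicates, so p-values measure the technical spread within a pool, and concentration and pool cannot be told apart. The comparison asks which liver transcripts differed with the concentration of DPhP.

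B cells carry antibody on their surface as part of the B cell receptor, whose signalling subunits are the products of Cd79a and Cd79b. An activated B cell can switch its heavy chain from the IgM class to IgG, IgE or IgA and mature into a plasma cell, which devotes much of its RNA to antibody chains and secretes them. IgA plasma cells are known above all from the wall of the gut, where epithelial cells carry IgA joined by the J chain into the lumen. The liver holds circulating and resident B cells.

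On GRCm38, Ighm, the constant region of the IgM heavy chain, lies at chr12:113418558-113422730 and Igha, that of IgA, at chr12:113254830-113260236, both on the minus strand. Igkc, the constant region of the kappa light chain, lies at chr6:70726435-70726966 on the plus strand. Jchain, whose product joins IgA and IgM into polymers, lies at chr5:88519809-88527891 (minus). Cd79a is at chr7:24897381-24902197 (plus) and Cd79b at chr11:106311341-106314762 (minus). Ms4a1, which encodes the B cell surface protein CD20, is at chr19:11249675-11266241 (minus), and Pou2af1, a coactivator of octamer-binding factors, at chr9:51213708-51240080 (plus). Igkc overlaps the same-strand gene Gm30211, which held 30 counts over 16 libraries, and Pou2af1 overlaps Gm47828, which held 11.

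Promoter sequence is shown for Jchain and Cd79a, since these moved in opposite directions in C2 and stand for the plasma cell and the B cell receptor side of the set. RefSeq promoters (GRCm38.p6) were listed for 3 of 9 members, of which Pou2af1 did not match the gene's transcript and is not shown. Both are given 5′ to 3′ on the gene's strand and end before the annotated start of the gene, Jchain at chr5:88527898-88528147 and Cd79a at chr7:24897247-24897380, and capitals mark the CAGGTG match.
Jchain: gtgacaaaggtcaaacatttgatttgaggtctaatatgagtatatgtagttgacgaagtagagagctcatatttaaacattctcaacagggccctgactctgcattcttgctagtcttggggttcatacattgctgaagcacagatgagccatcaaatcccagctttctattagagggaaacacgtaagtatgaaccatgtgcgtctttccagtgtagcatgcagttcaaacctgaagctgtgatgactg
Cd79a: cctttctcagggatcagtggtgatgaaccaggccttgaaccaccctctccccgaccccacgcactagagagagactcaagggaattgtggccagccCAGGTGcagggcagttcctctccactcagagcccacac
In the 250 bases before the RefSeq start, 4 motifs were searched on both strands: the octamer ATGCAAAT, the palindromic motif of EBF1, the PU.1 motif GAGGAAG and the E2A E-box CAGGTG. Among 32851 windows of 250 bases these were held by 1.6%, 0.779%, 10.6% and 17.2%. The printed Cd79a stretch is shorter than the window searched, since it stops where GENCODE starts the gene. The Cd79a window held the E-box at -154 to -149 from the RefSeq start, and the Jchain window held none of the 4.

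Depth ranged from 14434761 to 45109243 counts a library. Of the members, 8 of 9 passed the filter on low counts, and Mzb1, which encodes an endoplasmic reticulum protein that helps antibody assembly and had 2 to 15 counts a library, did not. The libraries C2-3, C2-4 and C3-4 held more nuclear-retained RNA (Malat1, Neat1, Xist and Kcnq1ot1 together) than the others, at 8256, 7926 and 7237 CPM (the count scaled to the size of its library) against 2833 to 5121 CPM in the remaining 13 libraries, so counts of calls are also given without them. Hepatocyte markers were abundant in every group, with mean Alb at 47950, 45450, 34420 and 32230 CPM in CTRL, C1, C2 and C3. CPM values throughout were scaled by TMM.

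Against CTRL, the 3 secretory antibody genes Igha, Igkc and Jchain were higher in C1, by 2.24-fold, 2.08-fold and 2.29-fold. In C2, Igha fell 4.98-fold and Jchain 1.80-fold, while Cd79a and Ms4a1 rose 2.02-fold and 1.96-fold. In C3, Igha fell 4.95-fold and Igkc 1.78-fold. Ighm passed the test in 0 of 6 comparisons by edgeR and limma-voom, with 1 at an unadjusted p under 0.05 (C2 against C1), which DESeq2 called at an adjusted p of 0.0405. In bulk liver, fewer cells of a type and less RNA per cell cannot be told apart.

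**Figure D1:**
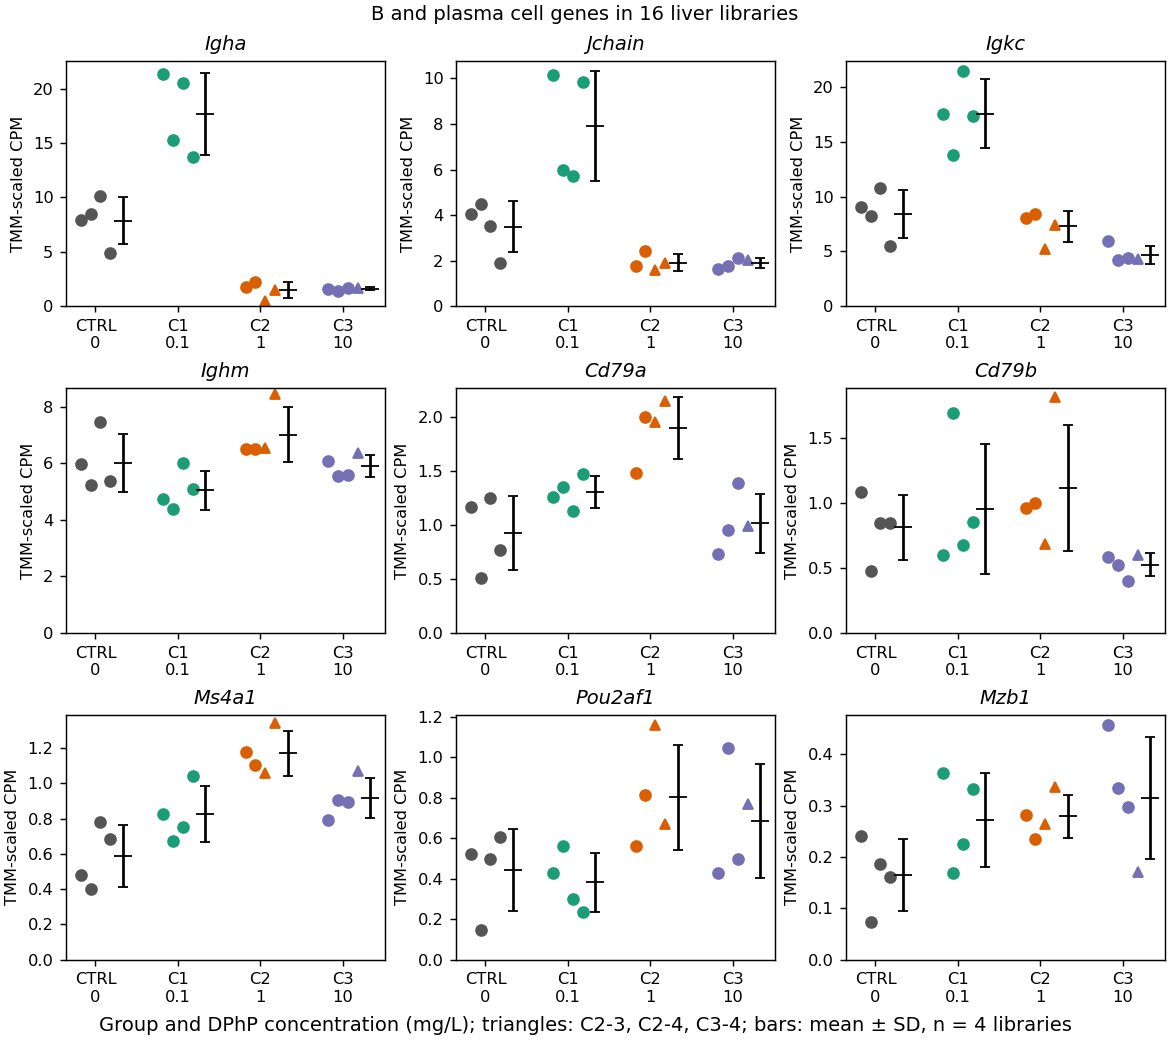
TMM-scaled CPM of the 9 genes (vertical axis of each panel, starting at 0) in the 4 libraries of CTRL, C1, C2 and C3; points are libraries and bars are means ± SD. Igha, Igkc and Jchain stand highest in C1, while Ighm lies between 4.39 and 8.46 CPM throughout.

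Igha, in libraries 1 to 4, read 7.96, 8.49, 10.1 and 4.89 CPM in CTRL and 21.3, 15.2, 20.5 and 13.8 CPM in C1. It read 1.78, 2.26, 0.475 and 1.48 CPM in C2 and 1.62, 1.38, 1.64 and 1.71 CPM in C3. The 4 C1 libraries all lay above CTRL and the 8 libraries of C2 and C3 all lay below it, with C2-3 the lowest of all, at 9 counts. The mean was 7.87 ± 2.2 CPM for CTRL, 17.7 ± 3.77 for C1, 1.5 ± 0.754 for C2 and 1.59 ± 0.142 for C3 (SD, n = 4 libraries). The log2 fold change was 1.17 ± 0.26 (SE) in C1, with an edgeR adjusted p of 0.0203. It was -2.31 ± 0.29 in C2 (edgeR adjusted p 6.82e-05) and -2.31 ± 0.29 in C3 (edgeR adjusted p 0.000377). The call in C1 ended without any 1 of CTRL-1, CTRL-2, CTRL-4, C1-1 and C1-3, with edgeR adjusted p of 0.0527, 0.0583, 0.0842, 0.0844 and 0.0696.

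Jchain read 4.04, 4.46, 3.52 and 1.90 CPM in CTRL and 10.1, 5.96, 5.70 and 9.86 CPM in C1. In C2 it read 1.79, 2.41, 1.58 and 1.88 CPM, and in C3 1.65, 1.76, 2.13 and 2.01 CPM. C1 did not overlap CTRL, whereas CTRL-4 lay within the range of C2 and C3 and the other CTRL libraries lay above both. The log2 fold change was 1.19 ± 0.24 in C1 (edgeR adjusted p 0.0121), -0.85 ± 0.25 in C2 (0.0288) and -0.89 ± 0.26 in C3, the last at an edgeR adjusted p of 0.0945 that missed the threshold of 0.05. The C1 call ended without C1-1 or C1-4 (edgeR adjusted p 0.0581 and 0.0634). The C2 call ended without C2-1, C2-3, C2-4, CTRL-1, CTRL-2 or CTRL-3, with edgeR adjusted p from 0.0551 to 0.108, and without C2-3, C2-4 and C3-4 together (0.0703). Limma-voom did not call it (adjusted p 0.0652), nor did edgeR with only the 2 groups fitted (0.0802). Without CTRL-4 Jchain was called in C3, at -1.09 and an edgeR adjusted p of 0.0330, and DESeq2 called it there with all libraries (0.0306).

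Igkc read 9.05, 8.27, 10.8 and 5.50 CPM in CTRL and 17.6, 13.8, 21.5 and 17.4 CPM in C1. In C2 it read 8.06, 8.45, 5.22 and 7.45 CPM, and in C3 5.93, 4.2, 4.36 and 4.32 CPM. C1 lay wholly above CTRL, C2 lay within or just below the range of CTRL, and in C3 3 of 4 libraries lay below CTRL. The log2 fold change was 1.06 ± 0.19 in C1 (edgeR adjusted p 0.00653), -0.20 ± 0.20 in C2 (0.502) and -0.83 ± 0.20 in C3 (0.0486). The C1 call held with any 1 library left out, and the C3 call ended without CTRL-1, CTRL-2, CTRL-3, C3-2, C3-3 or C3-4, with edgeR adjusted p from 0.100 to 0.180.

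Ighm read 5.96, 5.23, 7.45 and 5.37 CPM for CTRL, 4.73, 4.39, 6.0 and 5.07 CPM for C1, 6.48, 6.51, 6.54 and 8.46 CPM for C2 and 6.08, 5.53, 5.60 and 6.38 CPM for C3. The range of each treated group overlapped that of CTRL. The log2 fold change against CTRL was -0.26 ± 0.15 in C1, 0.21 ± 0.14 in C2 and -0.03 ± 0.14 in C3 (edgeR adjusted p 0.405, 0.314 and 0.947). Between C2 and C1 it was 0.47 ± 0.15, with every C2 library above every C1 library and an edgeR adjusted p of 0.116.

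Cd79a read 1.16, 0.512, 1.25 and 0.768 CPM for CTRL, 1.26, 1.35, 1.12 and 1.47 for C1, 1.48, 1.99, 1.95 and 2.15 for C2 and 0.733, 0.954, 1.39 and 0.984 for C3. Every C2 library stood above every CTRL library, on 32 to 76 counts against 14 to 40. The log2 fold change was 1.01 ± 0.27 in C2 (edgeR adjusted p 0.0144), 0.49 ± 0.28 in C1 (0.405) and 0.11 ± 0.28 in C3 (0.877). Its partner Cd79b read 0.476 to 1.08 CPM for CTRL, 0.596 to 1.69 for C1, 0.686 to 1.81 for C2 and 0.396 to 0.599 for C3. Those ranges overlapped CTRL in each group, and the log2 fold changes of 0.22 ± 0.37, 0.42 ± 0.36 and -0.61 ± 0.38 did not pass the test (edgeR adjusted p 0.839, 0.424 and 0.457).

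Ms4a1 read 0.480, 0.403, 0.779 and 0.687 CPM for CTRL, 0.827, 0.675, 0.749 and 1.04 for C1, 1.18, 1.10, 1.06 and 1.34 for C2 and 0.794, 0.906, 0.892 and 1.07 for C3. C2 and C3 lay wholly above CTRL, and C1 overlapped it. The log2 fold change was 0.97 ± 0.25 in C2 (edgeR adjusted p 0.0144), 0.49 ± 0.27 in C1 (0.387) and 0.62 ± 0.26 in C3 (0.248). Without C2-3, C2-4 and C3-4, the C2 values were 0.95 for Ms4a1 and 0.91 for Cd79a on the log2 scale, both called (edgeR adjusted p 0.0264 and 0.0255). Both calls ended when only CTRL and C2 were fitted (0.0536 and 0.0519), and that of Ms4a1 with no filter on low counts (0.0506). Pou2af1 read 0.146 to 0.606 CPM for CTRL, 0.237 to 0.563 for C1, 0.564 to 1.16 for C2 and 0.428 to 1.05 for C3, with log2 fold changes of -0.19 ± 0.45, 0.84 ± 0.41 and 0.61 ± 0.42 that did not pass (edgeR adjusted p 0.898, 0.161 and 0.500). Mzb1, outside the test, had a mean of 0.166 ± 0.0697 CPM for CTRL, 0.272 ± 0.0912 for C1, 0.279 ± 0.0419 for C2 and 0.315 ± 0.118 for C3.

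Counted together, 3 of 8 tested members were called in C1, all higher, where 2.32% of all tested genes were called in either direction. In C2 the count was 4 of 8, of which 2 were higher and 2 lower, against 18.3% of all genes. In C3 it was 2 of 8, both lower, against 1.4%. Without C2-3, C2-4 and C3-4 the counts were 3, 3 and 2. Calls over all genes rose in that fit, to 2688, 5177 and 1125 in C1, C2 and C3, from 414, 3254 and 249. The steady member counts thus stood beside a larger share of all genes. The libraries of the 2 groups did not overlap for 3 members in C1, 3 in C2 and 2 in C3, against 18.2%, 20.7% and 12.8% of all tested genes. The median log2 fold change of the 8 was 0.49 in C1, 0.32 in C2 and -0.32 in C3, beside 0.01, 0.03 and 0.00 over all tested genes.

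**Figure D2:**
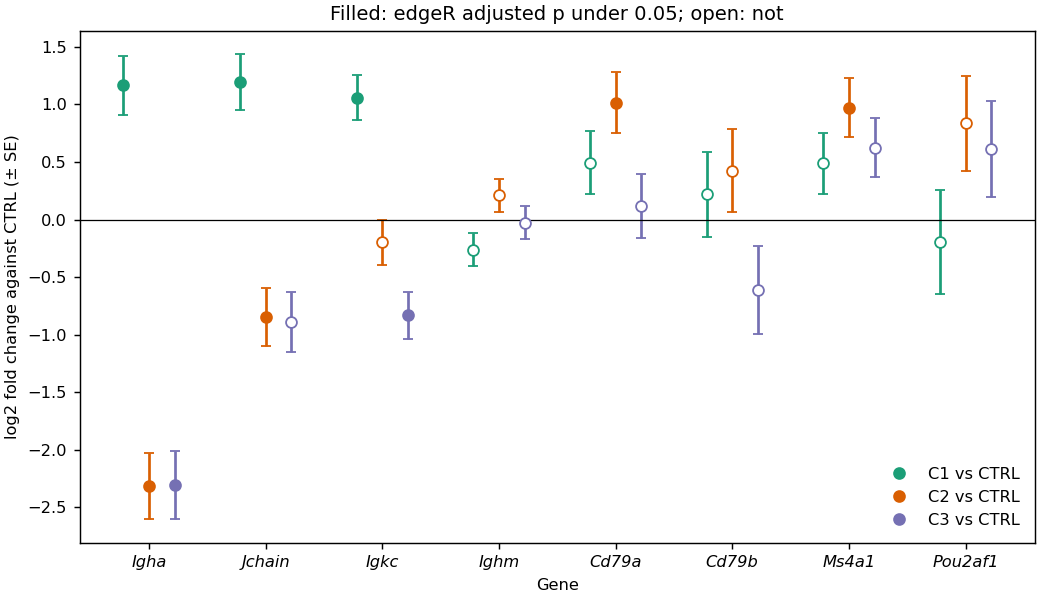
Log2 fold change against CTRL ± SE (vertical axis) of the 8 tested genes (horizontal axis) in C1, C2 and C3, from edgeR; filled points passed an adjusted p of 0.05. Igha lies at 1.17 in C1 and at -2.31 in both C2 and C3, and Ighm lies within 0.26 of 0 in all 3.

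Between treated groups, Igha was 11.2-fold lower in C2 than in C1 and 11.1-fold lower in C3 than in C1 (log2 -3.48 ± 0.29 and -3.47 ± 0.30, edgeR adjusted p 1.29e-06 and 5.02e-06). Jchain was 4.12-fold and 4.24-fold lower and Igkc 2.39-fold and 3.71-fold lower. These 3 made up the calls in both comparisons, 3 of 8 where 2.06% and 0.87% of all tested genes were called. In C3 against C2, edgeR and limma-voom called 0 of 8 members, where 1.44% of genes were called, with 3 at an unadjusted p under 0.05 (Cd79a, Cd79b and Igkc). The libraries did not overlap for 7 members in C2 against C1, 3 in C3 against C1 and 3 in C3 against C2, where 9.56%, 7.96% and 5.62% of all genes did not overlap. DESeq2 called 1 member in C3 against C2, Cd79a, at -0.92 and an adjusted p of 0.0334. Without C2-3, C2-4 and C3-4 edgeR called Igkc there, at -0.77 and an adjusted p of 0.0240. Over all genes these 2 fits called 600 and 2645, against 257 in the main fit.

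Per kilobase of exon, Igkc had the highest level of the 9 in every group, with means of 15.8, 33.1, 13.7 and 8.84 CPM per kb in CTRL, C1, C2 and C3. Igha changed place: at 6.64 CPM per kb it stood above Ighm at 2.68 for C1, at 2.95 it lay beside Ighm at 3.18 for CTRL, and at 0.562 and 0.595 it lay below Ighm at 3.71 and 3.13 for C2 and C3. Jchain was at 1.38 CPM per kb in CTRL and 0.761 in C2, where Cd79a stood at 1.30. Cd79b, Pou2af1, Mzb1 and Ms4a1 were at 0.567, 0.174, 0.136 and 0.0949 CPM per kb in CTRL.

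The classes of heavy chain shifted relative to each other. Of the counts of the heavy chain constant genes, 186 to 870 a library, Igha took 46.4% ± 5.85 for CTRL, 68.9% ± 5.53 for C1, 11.1% ± 5.56 for C2 and 15.5% ± 1.52 for C3. Ighm took 36.2%, 20.0%, 52.1% and 57.7% in the same order, Ighd, the constant region of IgD that naive B cells carry beside IgM, took 11.6%, 8.13%, 28.8% and 19.2%, and the Ighg genes together took 5.0%, 2.61%, 7.14% and 6.63%. The share of Igha lay wholly above CTRL in C1 and wholly below it in C2 and C3, each at an exact permutation p of 0.0286, two-sided, the smallest that 4 against 4 libraries allows, and 0.0476 adjusted over 15 tests of class shares, which were added after the data were seen. The Igha share is built from the same counts as the Igha calls above, so its test is no separate support for them. Shares of 1 total move together, so those of Ighm and Ighd are given as values only. Their tests are nonetheless among the 15, and all but that of Ighd in C1 stood at the same smallest p. This lowers the adjusted value, so 0.0476 is not read as passing 0.05. Ighm itself was not called against CTRL. Lambda chains took 7.64% of light chain constant counts for CTRL, 3.98% for C1, 15.7% for C2 and 12.5% for C3. C2 had the smallest exact permutation p of 0.0286, and 0.0476 adjusted over the same 15 tests, with the same limit.

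**Figure D3:**
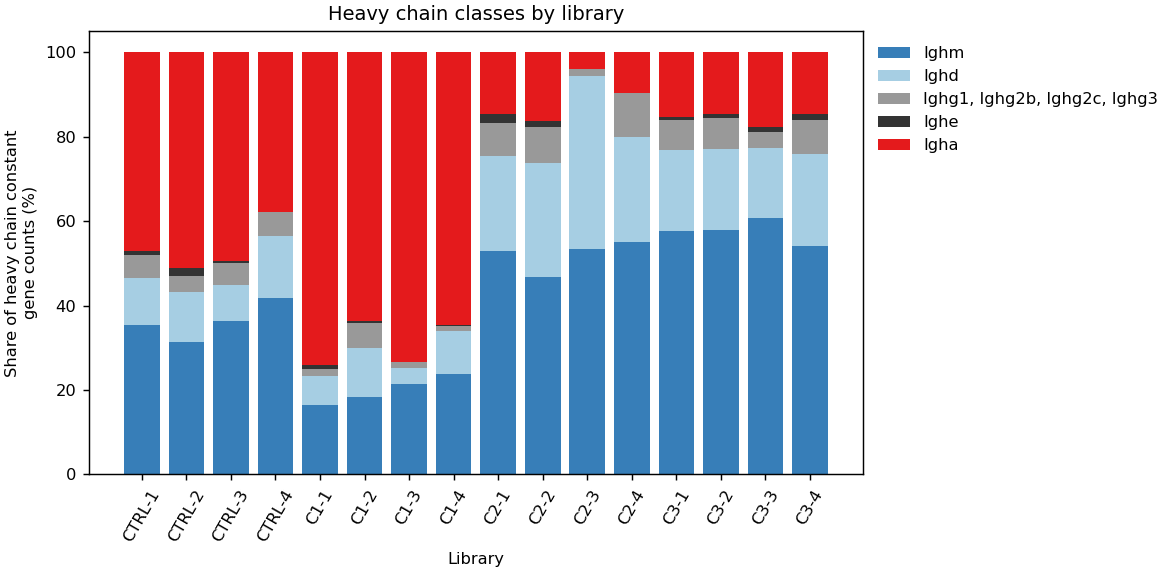
Share in percent (vertical axis) of heavy chain constant gene counts taken by each class in each of the 16 libraries (horizontal axis). Igha takes 37.9 to 51.0% for CTRL, 63.6 to 74.0% for C1, 3.88 to 16.2% for C2 and 14.5 to 17.7% for C3.

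Ighd itself had a mean of 1.88 ± 0.0957 CPM for CTRL, 2.00 ± 0.730 for C1, 3.84 ± 0.927 for C2 and 1.98 ± 0.437 for C3. It rose in C2, at a log2 fold change of 1.02 ± 0.24 (edgeR adjusted p 0.00774), with C2 wholly above CTRL. The heavy chain list held 8 genes of which 4 were tested (Ighm, Ighd, Ighg1 and Igha), with 1 higher in C1, 1 higher and 1 lower in C2 and 1 lower in C3. Of 5 light chain genes 2 were tested, Igkc and Iglc2, and edgeR did not call Iglc2 in any comparison with CTRL.

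The variable genes, whose segments join to form the antigen-binding end of an antibody, were thinly read. Of the 348 listed, 190 had at least 1 count and 1, Igkv4-59, passed the filter. EdgeR called it in 0 of 3 comparisons with CTRL, with an unadjusted p under 0.05 in C2 and C3, and DESeq2 and limma-voom called 0 variable genes. Summed over all variable genes, the level was 4.24 to 8.85 CPM for CTRL, 11.4 to 14.7 for C1, 2.64 to 5.33 for C2 and 2.43 to 2.93 for C3, so that C1 lay above CTRL, C3 below it, and C2 overlapped it. A further fit, chosen after seeing the data, put the sum of each locus in place of its variable genes. The heavy chain sum there changed by 0.89 ± 0.27 in C1 (edgeR adjusted p 0.102), -1.13 ± 0.29 in C2 (0.0142) and -1.77 ± 0.31 in C3 (0.00678) on the log2 scale. The kappa sum changed by 1.03 ± 0.23 (edgeR adjusted p 0.0241), -0.62 ± 0.24 (0.0809) and -1.12 ± 0.25 (0.0312). The 5 most read genes, Igkv10-96, Igkv1-117, Igkv4-59, Igkv1-135 and Igkv1-110, had 79 to 103 counts each over 16 libraries, and the leading gene took 3.72 to 16% of the variable counts of a library. Variable genes include near-identical copies, and the reference genome is of another strain, C57BL/6J, so single-gene values are uncertain.

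**Figure D4:**
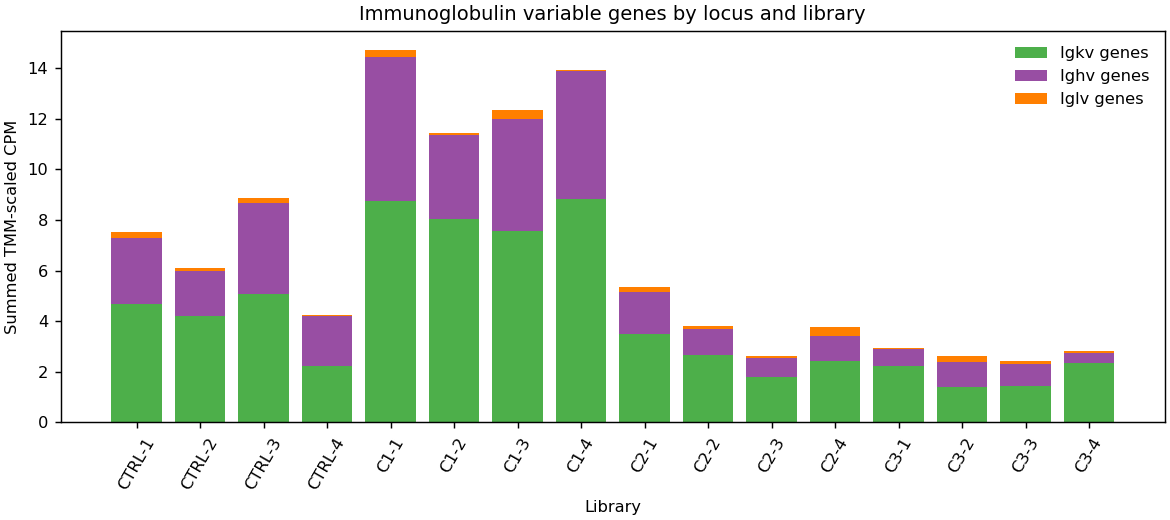
Summed TMM-scaled CPM (vertical axis) of variable genes of the heavy, kappa and lambda loci in each of the 16 libraries (horizontal axis). Over the loci together C1 reaches 11.4 to 14.7 CPM and C3 2.43 to 2.93 CPM.

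Genes of intestinal epithelium were also higher in C1 and lower in C2 and C3. The list of 18 markers was partly known from earlier results of these data, and 11 were tested: 5 were higher in C1 (Sis, Cdh17, Rbp2, Reg1 and Alpi), and 8 were lower in C2 and 8 in C3. Of all tested genes, edgeR called 2.32% in C1, 18.3% in C2 and 1.4% in C3, in either direction. The median log2 fold change of the 11 markers was 1.5 in C1, -4.08 in C2 and -3.81 in C3. Markers near 0 in C2 and C3, such as Reg1 (means of 0.0131 and 0.0477 CPM), passed the filter through CTRL and C1. A fall in C2 and C3 was thus partly set by which markers could be tested, and its size rests on few counts. The C1 calls of Cdh17, Rbp2 and Alpi and the C3 call of Vil1 ended when certain single libraries were left out, up to an edgeR adjusted p of 0.0900, 0.0761, 0.0895 and 0.149, and the other calls held. The full list summed to 63.9 to 90.4 CPM for CTRL, 91.7 to 109 for C1, 56.6 to 89.1 for C2 and 54.2 to 65.5 for C3, most of it from Fabp2 and Lgals4, which were read in every library and did not follow that order. Fabp2 had a mean of 59.5 CPM in CTRL against 49.1, 54.9 and 41.7 in C1, C2 and C3, and Lgals4 of 12.0 CPM against 18.1, 17.5 and 15.5. Without these 2 genes, left out after their values were seen, the sum was 6.63 to 12.2 CPM for CTRL, 27.5 to 37.4 for C1, 0.403 to 0.799 for C2 and 0.367 to 1.34 for C3. In CTRL 1 marker was at 0 in all 4 libraries (Reg3b), in C2 7 were (Cdx1, Lct, Cdx2, Reg3g, Zg16, Reg3b and Alpi) and in C3 6 (Guca2a, Cdx1, Lct, Cdx2, Reg3g and Reg3b). The enterocyte sugar-splitting enzyme Sis, for one, had a mean of 0.786 CPM for CTRL, 4.39 for C1, 0.0131 for C2 and 0.0372 for C3. CTRL-4, the lowest CTRL library for Igha, Igkc and Jchain, was also the lowest for the 16 markers. The part of intestinal tissue in the Igha, Igkc, Jchain and variable gene results was not tested.

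**Figure D5:**
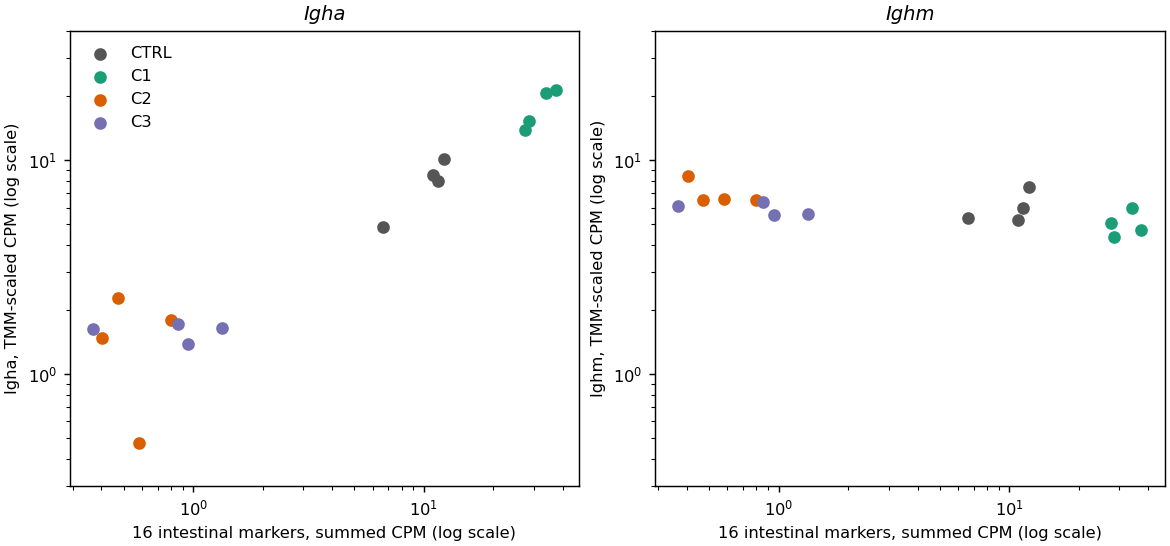
Igha and Ighm in TMM-scaled CPM (vertical axes, log scale) against the summed CPM of 16 intestinal epithelium markers (horizontal axes, log scale), the list without Fabp2 and Lgals4, which were left out after their values were seen; points are the 16 libraries, coloured by group. Igha runs from 0.475 to 21.3 CPM from the libraries of C2 and C3 to those of C1, while Ighm stays between 4.39 and 8.46 CPM.

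The genes most like each member over the 16 libraries were taken by Pearson correlation of log2 CPM, as a description of libraries that share pools and depth. For Igha these were S100g (r = 0.979, Spearman rho 0.921), Reg1 (0.966, rho 0.907) and Muc13 (0.964, rho 0.900), the last a mucin of epithelial surfaces. For Jchain they were Slc13a1 (0.960), Slc6a20a (0.948) and Sis (0.943), and for Igkc they included Acmsd (0.924) and Ocln (0.906). Centred on the group means, r fell to 0.806 for S100g, 0.715 for Slc13a1 and 0.521 for Acmsd, so that much of the likeness lay between the 4 pools. For Ighm the nearest were Ptpro (0.844), Ddhd2 (0.797) and Mgp (0.794). Cd79a was nearest to Gpc6 (0.865), Cd79b to Cdca7 (0.846), Pou2af1 to Chrdl1 (0.838) and Ms4a1 to Gm23865 (0.937). Among the members, Igha, Igkc and Jchain correlated at 0.854 to 0.905 with each other, and at 0.439 to 0.775 once centred on the group means. Igha correlated with Cd79a and Ms4a1 at -0.248 and -0.528, and at -0.0041 and 0.0134 once centred.

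Other B cell genes were called in C2 about as often as all genes, of which 18.3% were called. Of 16 tested signalling genes, C2 had 2 higher, among them Fcer2a (the low-affinity IgE receptor CD23, at 1.91 ± 0.45 on the log2 scale, edgeR adjusted p 0.00859), and 1 lower, Pik3ap1 (an adaptor to PI3 kinase, -1.28 ± 0.18, 0.000152). Pik3ap1 was also lower in C1, at -0.96 ± 0.17 (edgeR adjusted p 0.00637), the 1 call of the list there. Of 13 transcription factors, Ikzf3 (1.30 ± 0.39, edgeR adjusted p 0.0289) and Ebf1 (1.36 ± 0.45, 0.0451), both needed by B cells, were higher in C2, the only calls of the list there. In C1, where 2.32% of all genes were called, Bcl6 was higher (0.74 ± 0.18, 0.0376) and Bach2 lower (-0.98 ± 0.19, 0.00792). Without C2-3, C2-4 and C3-4 the signalling list had 1 higher and 2 lower in C2, where 5177 genes were called over all in place of 3254. The calls of Ikzf3 and Ebf1 ended without those libraries, and also without C2-3, C2-4, CTRL-2 or CTRL-4 alone, and that of Ebf1 without CTRL-1 or CTRL-3. Over all alternatives their adjusted p reached 0.240 and 0.385, and limma-voom called neither Ikzf3 nor Ebf1. The C1 call of Bcl6 ended without any 1 library of CTRL or C1 (up to 0.133). The call of Fcer2a held under all 17 alternatives.

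Genes of plasma cells and of secretion were not called higher in C1, where Igha was. Of 13 tested, 3 were lower there, against 2.32% of all genes called in either direction: Derl3 (-1.09 ± 0.28, edgeR adjusted p 0.0450), Xbp1 (-0.44 ± 0.11, 0.0310) and Creld2 (-0.71 ± 0.13, 0.00787), all of endoplasmic reticulum function. The median log2 fold change of the 13 was -0.02. Genes without a call went both ways. From CTRL to C1, means rose for Irf4 (0.190 to 0.554 CPM), Slamf7 (0.280 to 0.482), Eaf2 (0.478 to 0.689) and Tnfrsf13b (0.344 to 0.509). They fell for Prdm1 (0.845 to 0.695 CPM), Sdc1 (178.8 to 122.8) and Txndc5 (152.5 to 123.3). In C2, where 18.3% of all genes were called, 2 were higher, among them Derl3 (1.32 ± 0.24, edgeR adjusted p 0.00162), and 2 lower, among them Sdc1 (-1.09 ± 0.15, 0.000179). Hepatocytes express many of these genes, with Sdc1 at a mean of 178.8 CPM and Xbp1 at 192.9 CPM in CTRL. The C1 call of Xbp1 ended without any 1 library of CTRL or C1, and that of Derl3 without any 1 of them but C1-2, with adjusted p of up to 0.146 and 0.153 over the alternatives. Of the precursor genes, 2 were tested, Vpreb3 and Dntt. The others were nearly unread, with Rag1, Rag2, Igll1 and Vpreb2 at 0, 3, 2 and 2 counts over 16 libraries and Vpreb1 at 73. Dntt was lower in C2 (-0.72 ± 0.18, edgeR adjusted p 0.0122). In C1 edgeR called 0 of the 2, where 1 had an unadjusted p under 0.05 and DESeq2 and limma-voom called 1.

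Of 11 survival and homing genes, Ccl25, a chemokine that draws gut-homing lymphocytes, was higher in C1 (0.74 ± 0.18, edgeR adjusted p 0.0414) and C2 (0.76 ± 0.18, 0.00942), and Itga4, an integrin subunit, in C1 (0.53 ± 0.12, 0.0286), where 2.32% of all genes were called. Both C1 calls ended without any 1 library of CTRL or C1, up to an edgeR adjusted p of 0.144 and 0.113. The C2 call of Ccl25 ended without C2-3, C2-4 and C3-4 together and with only the 2 groups fitted, up to 0.0645. Of 4 genes that bind or carry antibody, C2 had Fcgr2b higher (0.66 ± 0.10, edgeR adjusted p 0.000241) and both Fcgrt (-0.91 ± 0.19, 0.00395) and Pigr (-0.68 ± 0.17, 0.0103) lower. Fcgr2b is also on the list of sinusoidal endothelial genes and is counted there again below. Pigr, the carrier of polymeric IgA across epithelia, had a mean of 934.5 CPM in CTRL and 582 CPM in C2. Of 9 class II genes, H2-Ab1 was lower in C2 (-0.63 ± 0.13, edgeR adjusted p 0.00267). The survival and class II lists, with 1 call each, had a lower share called in C2 than the 18.3% of all genes, and the antibody-binding list, with 3 of 4, a higher one. In C1 edgeR called 0 of 4 antibody-binding and 0 of 9 class II genes, with 2 and 1 at an unadjusted p under 0.05, 1 and 1 called by DESeq2 and 0 and 0 by limma-voom.

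In C3, where 1.4% of all tested genes were called, edgeR called 0 genes in each of these 7 lists. At that share, 0 calls in lists of this size do not set them apart from other genes. Of the 16 signalling genes 2 had an unadjusted p under 0.05, of the 13 transcription factors 2, of the 13 plasma cell genes 2, of the precursors 1, of the survival genes 1, of the antibody-binding genes 2 and of the class II genes 3. Limma-voom called 0 in each, and DESeq2 called 1 signalling gene and 1 class II gene.

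Among markers of other cells, 0 of 14 T and NK cell genes were called by edgeR against CTRL, with 0, 4 and 1 at an unadjusted p under 0.05 in C1, C2 and C3 and 0, 2 and 0 called by both DESeq2 and limma-voom. Their summed level was 11.4 to 16.5 CPM for CTRL, 13.8 to 16 for C1, 15.7 to 19.9 for C2 and 11.3 to 17.1 for C3, and Trbc2 stood at 0.90 ± 0.32 for C2 on the log2 scale (edgeR adjusted p 0.0558). In C2, where Cd79a and Ms4a1 were higher, 6 of 8 sinusoidal endothelial genes and 3 of 4 nuclear-retained RNAs were also higher, and 2 of 12 macrophage genes, 3 of 5 erythroid genes and 1 of 5 hepatocyte genes were lower, where 18.3% of all genes were called in either direction; the macrophage and hepatocyte shares lay near it. Without C2-3, C2-4 and C3-4 those counts were 5, 1, 2, 3 and 0, where 5177 genes were called over all in place of 3254. In C3, where 1.4% of all genes were called, 2 of 5 erythroid genes, Hba-a1 and Hba-a2, were lower. Of 4 lymphoid stroma genes 0 were called by edgeR, with 0, 2 and 0 at an unadjusted p under 0.05 and 0, 1 and 0 called by DESeq2, and Ccl21a had a mean of 0.993 CPM in CTRL and 2.09 in C2. Exocrine pancreas, mesothelial, adipocyte and neutrophil markers had 0 edgeR calls in the 3 comparisons, with 1, 1, 1 and 2 at most at an unadjusted p under 0.05 in any, and DESeq2 called 1 mesothelial gene in C1 and 1 neutrophil gene in C3. The part of these cells in the B cell results was not tested.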

How the data were processed

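RNA from 16 mouse liver libraries was measured. Per the labels' protocols, RNeasy total RNA was poly(A)-selected and made into strand-marking NEBNext libraries. Per the submitters' processing notes, GRCm38 was the build and the tools included STAR 2.5.2b, FastQC 0.11.5 and bcl2fastq 2.19.1.403. The counter, its strand setting and its handling of shared reads were not given in the sources used here. The authors deposited raw read counts for 53372 genes, not normalised. Symbols came from the table, and positions from GENCODE M21, which held 53267 identifiers.

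Genes were filtered with filterByExpr (17810 tested), scaled by TMM and fitted with edgeR 4.0.16 (glmQLFit, robust, and glmQLFTest) in R 4.3.3, in 1 model of 16 libraries with the group as the term and 12 residual degrees of freedom. P-values were adjusted by Benjamini-Hochberg over all tested genes in each of 6 comparisons, at a threshold of 0.05, and the test was checked on simulated data. DESeq2 1.42.0 and limma-voom (limma 3.58.1) were alternatives. Pairs of replicates differed by more than counting noise (chi-square per degree of freedom 5.45 to 710 over 24 pairs). Members and gene lists were chosen with earlier results of these data known. All members were named; from each other list up to 4 called genes with the largest change were named, or the 2 most abundant where under 2 were called, and, after their values were seen, other genes where a count was small. A few genes picked this way are not reported here.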

Additional observations from a re-analysis of the deposited data

Results flagged for a closer look

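Of 36 sets of 4 libraries (9 genes in 4 groups) examined for a library far from the others, 2 were picked out, and chance picks out about 1 in 20. Ighm in C2 read 8.456 CPM in library C2-4, against 6.48 to 6.54 CPM in the other C2 libraries. Igkc in C3 read 5.928 CPM in library C3-1, against 4.2 to 4.36 CPM in the other C3 libraries.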

How the results depend on the processing

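All calls of Igha in C2 and C3, of Igkc in C1 and of Igha, Igkc and Jchain against C1 held under the 17 alternatives tried for each. In C3 against CTRL, 1 member was called in place of 2 with DESeq2 size factors, limma-voom, only the 2 groups compared, the replicate block, or without the ribosomal RNA locus, and 1 to 3 with 1 library left out. Over all genes those settings called 239 to 301 in C3, and the fits without 1 library 97 to 210, in place of 249. With only the 2 groups compared, 1 member was called in C2 in place of 4, and 1492 genes over all in place of 3254. With 1 library left out, 1 to 3 members were called in C1 and 3 to 4 in C2. Over all genes those fits called 159 to 294 and 1972 to 4492, in place of 414 and 3254. In C3 against C2, 1 member was called in place of 0 by DESeq2 and without C2-3, C2-4 and C3-4. Calls over all genes there went from 257 to 600 and to 2645. Of the variable genes, 2 of 7 tested were called in C1 without those 3 libraries, where 2688 genes were called over all. With no filter on low counts, 3 of 190 were called in C2, where 2502 of all 32916 genes were called. Summing per locus gave 1, 1 and 2 calls in C1, C2 and C3, out of 2 sums tested. Igha in C3 against C2, at 0.01, became -0.02 with DESeq2 size factors (-0.0175) and without the ribosomal RNA locus (-0.0156), -0.39 without C2-3, C2-4 and C3-4, and -0.26 to 0.27 with 1 library left out. Other values that crossed 0 with 1 library left out, none of them called, were Cd79b in C1 (-0.20 to 0.41) and in C2 against C1 (-0.069 to 0.64), Ighm in C3 (-0.080 to 0.094), Cd79a in C3 (-0.079 to 0.30) and Jchain in C3 against C2 (-0.13 to 0.11). The cause was not tested. The replicate numbers did not pair the libraries: deviations of same-numbered libraries correlated at -0.299 to 0.510, over 0.1 in 8 of 24 pairs. With the replicate block 3, 4 and 1 members were called in C1, C2 and C3, and 435, 3426 and 256 genes over all. None of the alternatives moved the median of all genes by more than 0.0352 on the log2 scale. Mzb1, at 2 to 15 counts a library, and all variable genes but 1 were read too thinly to pass the filter of the main fit. With no filter, Mzb1 stood at 0.73, 0.71 and 0.93 on the log2 scale in C1, C2 and C3, not called (edgeR adjusted p 0.655, 0.462 and 0.571).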
